A study of Mus musculus with 4 samples.

Results

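Sox1, Sox2, Sox3, Sox21, Sox14, Sox8 and Sox9 are the Sox genes of groups B and E that are known from neural progenitor cells. They were taken by gene symbol from an expression table of 22770 genes in embryonic mouse cortex, and 6 of the 7 were analysed. Sox14 was not analysed here. The rule itself uses no expression value, but the genes were chosen with earlier results of these data known. The RNA came from dissected cerebral cortex at embryonic day 16.5, in 2 libraries from Pax6 sey/sey mutants and 2 libraries from wild-type littermates. Both genotypes were on a mixed C57BL/6J, 129S6 and CD1 background. Pax6 codes for a transcription factor of cortical progenitors, and sey (small eye) is a mutant allele of it. The labels leave unsaid if every library had its own embryo, and p-values then measure only the spread between these libraries, which for the wild types may be technical.

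Sox proteins bind DNA through a shared HMG box and act together with partner proteins such as POU factors. The SoxB1 proteins (Sox1, Sox2, Sox3) are activators that keep neural progenitors undifferentiated and can partly stand in for each other. The SoxB2 proteins (Sox21, Sox14) act mainly as repressors and oppose SoxB1. Of the SoxE proteins, Sox9 acts in progenitors that turn to making glia, and Sox8 acts beside it and in the oligodendrocyte lineage.

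Levels are given in FPKM, a count of sequenced fragments per gene corrected for gene length and library size. Each library summed to between 579698 and 593256 FPKM and had 13682 to 13875 genes at 1 FPKM or more. From the lowest values in the table, 1 fragment was worth about 0.1 to 0.148 FPKM times kilobases of exon in the 4 libraries. Pax6 itself stood at 101 and 120 FPKM in the mutants, against 28.8 and 27.0 FPKM in the wild types. The sey allele leaves a transcript, so this level does not check the genotype label. Mutant library 1 had 350 FPKM of Xist, the RNA of the inactive X chromosome, and the other 3 libraries had 0.0788 to 0.224 FPKM. Ddx3y, a gene of the Y chromosome, stood at 0 and 23.3 FPKM in the mutants, against 17.6 and 16.5 FPKM in the wild types, so the 2 mutant libraries are not repeats of 1 embryo. Markers of cortical neurons were abundant in every library, with Neurod6, a factor of cortical excitatory neurons, at 352 and 323 FPKM in the mutants and 534 and 588 FPKM in the wild types. Of the 4 listed markers 0 were called higher and 1, Neurod6, was called lower in the mutants (log2 fold change -0.73, limma adjusted p = 0.0219). Choroid plexus markers summed to at most 0.650 FPKM in the mutants and 1.91 FPKM in the wild types.

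In mutant cortex Sox1 RNA was 3.81 times and Sox2 RNA 3.52 times the wild-type mean, and Sox9 RNA was 1.75 times that mean. Sox3 stood at 0.382 times the wild-type mean and was not called. Of the 6 genes 3 rose and 0 fell in limma (adjusted p under 0.05, adjustment over the 15399 tested genes), where 3.48% of all tested genes were called, 2.02% higher and 1.46% lower. At an unadjusted p under 0.05, which 19.5% of all tested genes reached, 4 of the 6 lay higher and 1 lower. The median log2 fold change of the 6 was 0.65, against 0.00062 over all tested genes, and their median absolute change was 0.99, against 0.17. In all 6 the mutants lay on 1 side of the wild types, which was also true of 51.6% of all tested genes. In whole cortex RNA, a change in the number of cells that express a gene and a change in RNA per cell cannot be told apart.

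**Figure D1:**
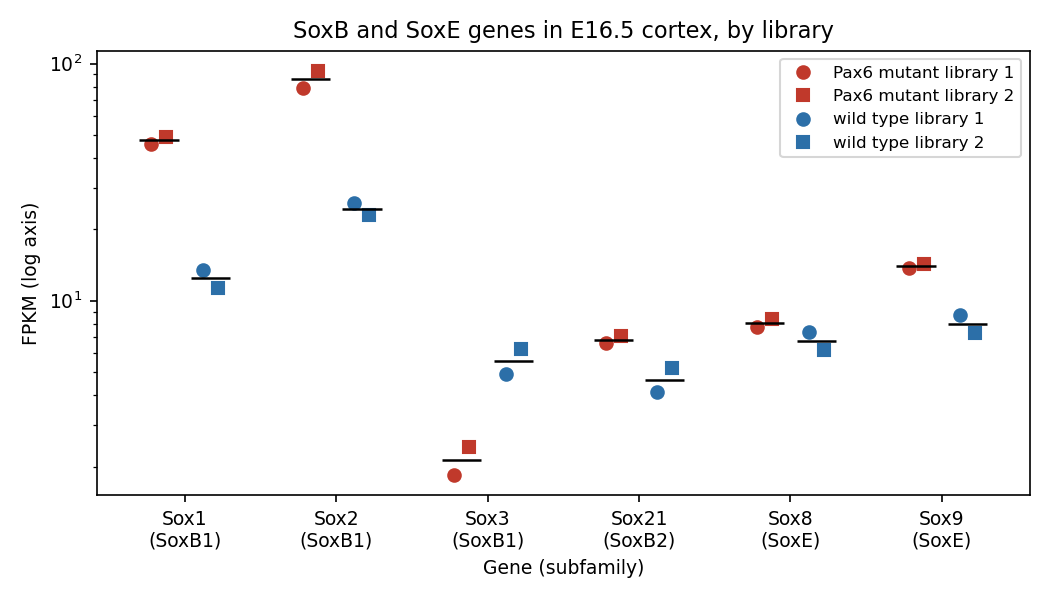
FPKM on a log axis of the 6 analysed SoxB and SoxE genes, with Pax6 mutants in red left of wild types in blue, circles for library 1, squares for library 2 and black lines marking the means (n = 2 per genotype). Sox2 averages 85.8 FPKM in mutants and 24.3 FPKM in wild types, while Sox3 averages 2.13 FPKM in mutants and 5.58 FPKM in wild types.

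Among the SoxB1 genes, Sox2 had the highest level. Sox2 codes for a factor that maintains neural stem and progenitor cells, and it is also one of the classical pluripotency factors. Its RNA was 78.5 and 93.1 FPKM in the mutants, against 25.8 and 22.9 FPKM in the wild types. Both mutants lay more than 3 times above both wild types, and the difference within a genotype was small beside that between genotypes. The group means were 85.8 ± 10.3 FPKM in mutants and 24.3 ± 2.03 FPKM in wild types (SD, n = 2 each), which is 1.79 on the log2 scale (SE 0.11, limma adjusted p = 0.00746). This was the 83rd highest fold change of 15399. Without mutant library 1 the call held (adjusted p = 0.0383), and with any 1 of the other 3 libraries left out it was lost (adjusted p of 0.0659 to 0.0971, log2 fold changes of 1.67 to 1.88).

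Sox1 is the SoxB1 gene that marks early neural fate, and it is also needed in ventral forebrain neurons of the mouse. It had 45.7 and 49.0 FPKM in the mutants, against 13.5 and 11.4 FPKM in the wild types. Mutants and wild types did not overlap, and the lower mutant was more than 3 times the higher wild type. The means were 47.4 ± 2.36 FPKM in mutants and 12.4 ± 1.51 FPKM in wild types (SD, n = 2 each), a ratio of 3.81, or 1.89 on the log2 scale (SE 0.11, limma adjusted p = 0.00582). Sox1 ranked 72nd from the highest fold change. Leaving out any of the 4 libraries gave log2 fold changes of 1.77 to 2.01 and adjusted p of 0.0562 to 0.0791, so that Sox1 was not called with any 1 of them left out.

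Sox3, the X-linked SoxB1 gene, which acts in progenitors and in development of the pituitary and hypothalamus, had the opposite sign. It is a gene of 1 exon on the X chromosome from 60891366 to 60893430, minus strand (ENSMUSG00000045179). It stood at 1.84 and 2.42 FPKM in the mutants, against 4.90 and 6.26 FPKM in the wild types. Both mutants were below both wild types. Only mutant library 1 had high Xist and no Ddx3y, so sex was not balanced between genotypes. The part of sex in the Sox3 values was not tested. The means were 2.13 ± 0.411 FPKM in mutants and 5.58 ± 0.958 FPKM in wild types (SD, n = 2 each), and the log2 fold change was -1.21 with a 95% interval of -1.75 to -0.67. Sox3 did not pass the threshold over all genes (limma adjusted p = 0.0567, unadjusted p = 0.00219). It ranked 15238 from the highest fold change of 15399. The level rests on few fragments, about 28 and 50 in the mutants and 86 and 87 in the wild types by the estimate from the lowest values.

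The make-up of the SoxB1 sum is given next, as a description with no test. Summed over the 3 genes, SoxB1 RNA was 126 and 145 FPKM in the mutants, against 44.2 and 40.5 FPKM in the wild types. Sox3 supplied 1.46% and 1.68% of that sum in the mutants, against 11.1% and 15.4% in the wild types. Sox2 supplied 62.3% and 64.4% in the mutants and 58.3% and 56.5% in the wild types, and Sox1 supplied 36.3% and 33.9% in the mutants and 30.6% and 28.0% in the wild types. The shares did not overlap between genotypes, with the widest gap for Sox3. The levels of 51.6% of all tested genes also did not overlap. The 3 shares of a library add up to the whole, so they are not separate results.

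**Figure D2:**
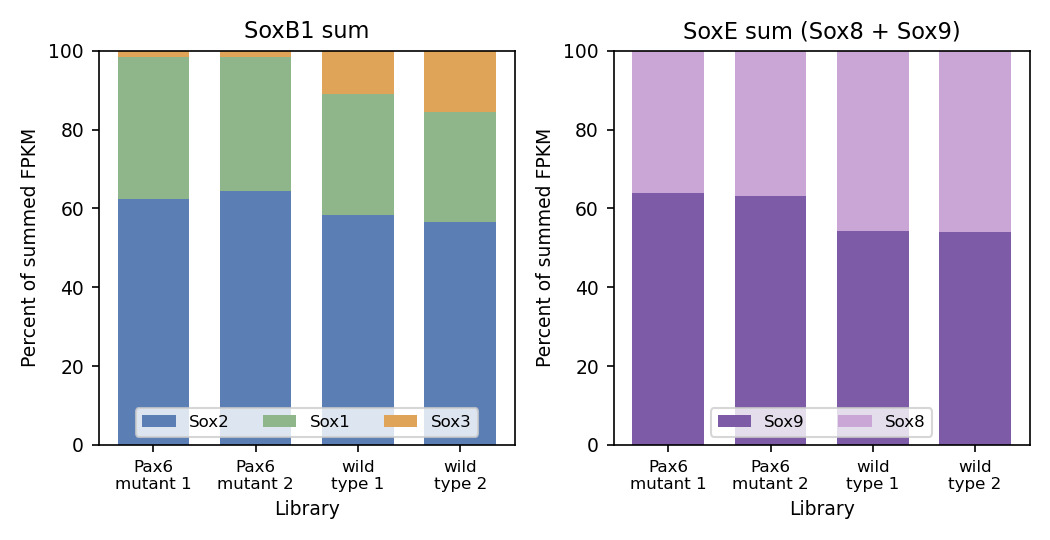
Percent of the summed SoxB1 FPKM (left) and of the summed Sox8 and Sox9 FPKM (right) that each gene supplies, in each library, with mutants left of wild types. Sox3 takes 1.46% and 1.68% of SoxB1 in mutants and 11.1% and 15.4% in wild types, and Sox9 takes 64.0% and 63.1% of the right-hand sum in mutants and 54.2% and 54.1% in wild types.

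The difference between members was tested on the log2 ratio of 2 genes within a library, for 4 pairs. The Sox2 to Sox3 ratio was 5.08 and 5.001 on the log2 scale in the mutants, against 2.28 and 1.79 in the wild types, a difference of 3.002 (exact two-sided permutation p = 0.33, adjusted over the 4 pairs 0.444). That p is the smallest that 2 against 2 libraries allow, so no ratio could pass 0.05. The Sox2 to Sox1 ratio was 0.77 and 0.92 in the mutants and 0.91 and 0.98 in the wild types, with groups that overlap and a difference of -0.10 (exact two-sided permutation p = 0.667, adjusted 0.667).

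Sox1 and Sox2 each lie inside a longer noncoding gene transcribed from the same strand, and both host genes moved with them. In the GENCODE M21 annotation on GRCm38, Sox2 (ENSMUSG00000074637) is a gene of 1 exon on chromosome 3 from 34650405 to 34652461, plus strand, within Sox2ot. Sox1 (ENSMUSG00000096014) has 1 exon on chromosome 8 from 12395295 to 12400126, plus strand, within Sox1ot, which the table lists as Gm5607. Neither pair shares exon bases (0 in each). Gm25239, a microRNA gene on the same strand, shares 86 exon bases with Sox1. Sox2ot had 87.1 and 98.1 FPKM in the mutants, against 21.4 and 14.2 FPKM in the wild types (log2 fold change 2.37, SE 0.20, limma adjusted p = 0.0147). Sox1ot had 21.2 and 25.7 FPKM in the mutants, against 5.87 and 4.73 FPKM in the wild types (log2 fold change 2.05, SE 0.16, limma adjusted p = 0.0122). Sox2ot made up 1.11 and 1.05 times the Sox2 level in the mutants and 0.832 and 0.622 times in the wild types, while Sox1ot stood at 0.463 and 0.525 times the Sox1 level in the mutants and 0.435 and 0.416 times in the wild types. The authors' table gives each pair a common locus, and the Sox2 locus also holds Gm20515, Gm42692, Gm42693 and Gm43207. How fragments were divided between genes of a locus is thus uncertain, and the part of this in these values was not tested.

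**Figure D3:**
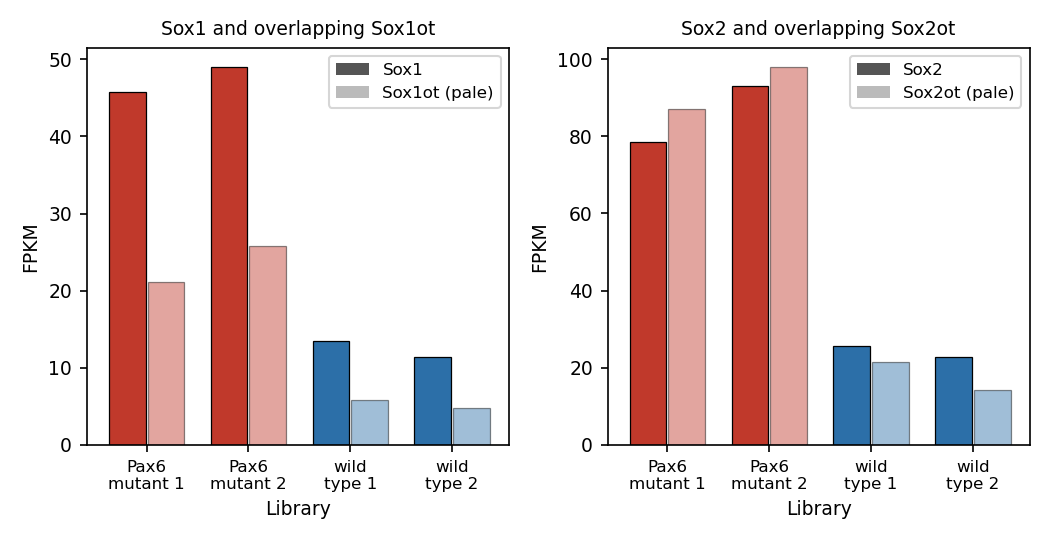
FPKM of Sox1 with the overlapping Sox1ot (left) and of Sox2 with the overlapping Sox2ot (right, pale bars for the overlapping gene) in each library, mutants in red left of wild types in blue. Sox2ot stands at 87.1 and 98.1 FPKM in mutants and 21.4 and 14.2 FPKM in wild types.

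Of 9 tested protein-coding genes that lie nearest to the Sox genes 0 were called in limma (1 at an unadjusted p under 0.05, Kcnj2 beside Sox9, at 3.79 ± 0.990 FPKM in mutants and 6.23 ± 0.321 FPKM in wild types). Over all tested genes 3.48% were called. None of the 9 lies beside Sox1, and 1 of them, Il20rb, lies beside Sox14, which was not analysed. Dnajc19, which codes for a mitochondrial protein and lies 569084 bases from Sox2, was 31.5 ± 3.75 FPKM in mutants and 34.7 ± 1.84 FPKM in wild types (SD, n = 2 each, limma adjusted p = 0.526). Atp11b, a phospholipid flippase gene 1101645 bases to the other side, was 42.5 ± 1.31 FPKM in mutants and 45.1 ± 1.61 FPKM in wild types (limma adjusted p = 0.564). On the X chromosome, Cdr1, 290575 bases from Sox3, was 3.78 ± 0.576 FPKM in mutants and 4.45 ± 0.460 FPKM in wild types (limma adjusted p = 0.581).

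The start regions of Sox1 and Sox2 are shown because these genes rose together. RefSeq promoter windows (GRCm38.p6, 250 bases before to 50 after the start) were matched for 5 of the 7 genes. The first line gives the 250 bases before the RefSeq start of Sox2, chr3:34649745-34649994, plus strand, ahead of the annotated exon. The second line gives 30 bases of Sox1, chr8:12395526-12395555, plus strand, just after the RefSeq start and inside the single Sox1 exon. Capitals mark the matches to the letters searched.
Sox2: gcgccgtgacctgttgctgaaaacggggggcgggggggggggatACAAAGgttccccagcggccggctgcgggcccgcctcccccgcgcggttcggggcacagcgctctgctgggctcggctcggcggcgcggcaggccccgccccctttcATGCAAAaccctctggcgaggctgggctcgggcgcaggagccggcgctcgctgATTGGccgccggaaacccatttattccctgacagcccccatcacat
Sox1: gccagcgcgccATGCAAATcaccgccgccg

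Both strands were searched. The POU octamer ATGCAAAT was found in the Sox1 window and in 1.74% of all 32851 windows of the same length. Its first 7 letters were tried after the sequences had been read. They overlap the octamer, stand in the windows of Sox1 and Sox2 and of no other of the 5 matched genes, and occur in 4.63% of all windows. A Sox-type core, ACAAAG, was found in the Sox2 window and in 18.7% of all windows. The CCAAT box was in the windows of Sox1, Sox2 (on the strand not printed) and Sox14 and in 37.4% of all. A second Sox-type core, ACAATG, was in none of the 5 windows and in 12.6% of all. The homeodomain core TAATTA was likewise in none of the 5 and in 5.29% of all windows. A match of this kind is a description of the letters and not evidence of binding.

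Sox21, the SoxB2 gene analysed, codes for a repressor that counteracts SoxB1 in progenitors. It is a gene of 1 exon on chromosome 14 from 118233232 to 118237030, minus strand (ENSMUSG00000061517). Its RNA was 6.62 and 7.08 FPKM in the mutants, against 4.11 and 5.19 FPKM in the wild types. Both mutants were above both wild types, which 25.8% of all tested genes also showed. The means were 6.85 ± 0.324 FPKM in mutants and 4.65 ± 0.766 FPKM in wild types (SD, n = 2 each), and the log2 fold change of 0.52 was not called (95% interval 0.10 to 0.94, limma adjusted p = 0.185). The ratio of the SoxB1 sum to Sox21 was 19.03 and 20.4 in the mutants, against 10.7 and 7.80 in the wild types, so in the mutants the activator RNAs exceeded the repressor RNA by a wider margin in both libraries. The lincRNA Gm4675 on the opposite strand shares 713 exon bases with Sox21, strand use is not stated, and the Sox21 value is uncertain for that reason. Gm4675 was 3.28 and 2.42 FPKM in the mutants and 1.24 and 2.12 FPKM in the wild types (limma adjusted p = 0.306).

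Of the SoxE genes, Sox9 is the factor that in mouse progenitors starts the switch from neuron to glia production. Sox9 (ENSMUSG00000000567, chromosome 11 from 112782224 to 112787760, plus strand) had 13.7 and 14.3 FPKM in the mutants, against 8.72 and 7.30 FPKM in the wild types. The groups did not overlap, and the mutants were closer to each other than the wild types were. The means were 14.0 ± 0.431 FPKM in mutants and 8.01 ± 1.002 FPKM in wild types (SD, n = 2 each), and Sox9 rose by 0.78 on the log2 scale (SE 0.13, limma adjusted p = 0.0482). This call lies close to the threshold: the adjusted p was 0.0734 when replicate numbers were blocked and 0.163 to 0.224 with any 1 of the 4 libraries left out. No annotated gene overlaps Sox9.

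Sox8, which acts with Sox9 and Sox10 in the oligodendrocyte lineage, showed a smaller difference. It had 7.73 and 8.37 FPKM in the mutants, against 7.37 and 6.21 FPKM in the wild types. The lower mutant exceeded the higher wild type by less than the wild types differed from each other. The means were 8.05 ± 0.450 FPKM in mutants and 6.79 ± 0.824 FPKM in wild types (SD, n = 2 each), with a log2 fold change of 0.23 that was not called (95% interval -0.13 to 0.60, limma adjusted p = 0.437). Without wild-type library 2 it was 0.12. The antisense gene 2810468N07Rik shares 329 exon bases with Sox8 (ENSMUSG00000024176, chromosome 17 from 25565892 to 25570686, minus strand), and it stood at 1.25 and 1.12 FPKM in the mutants and 1.17 and 0.639 FPKM in the wild types.

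Sox9 thus took a larger part of the sum of both genes in the mutants, 64.0% and 63.1%, against 54.2% and 54.1% in the wild types. The log2 ratio of Sox9 to Sox8 was 0.79 and 0.74 in the mutants and 0.23 and 0.22 in the wild types, a difference of 0.54 (exact two-sided permutation p = 0.33, adjusted 0.444). The ratio of Sox2 to Sox9 was 2.47 and 2.66 on the log2 scale in the mutants and 1.51 and 1.58 in the wild types, a difference of 1.02 (exact two-sided permutation p = 0.33, adjusted 0.444). The SoxB1 sum was 5.87 and 6.37 times the sum of Sox8 and Sox9 in the mutants, against 2.74 and 2.9998 times in the wild types.

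The order of levels was Sox2, Sox1, Sox9, Sox8, Sox21 and Sox3 in the mutants, and no neighbours in that order overlapped. In the wild types it was Sox2, Sox1, Sox9, Sox8, Sox3 and Sox21, and there Sox9 and Sox8, Sox8 and Sox3, and Sox3 and Sox21 overlapped in range. Among all genes of the table Sox2 ranked 941st by mean FPKM in the mutants and 4270th in the wild types, Sox1 2074th in the mutants and 7070th in the wild types, and Sox3 12203rd in the mutants and 9810th in the wild types. The rank of Sox8 moved little, 8700th in the mutants and 9197th in the wild types.

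The authors' deposited table gives its own p-value for each gene, from a test that is not stated. In the authors' deposited table the p-value was 2.73e-09 for Sox2 and 4.27e-06 for Sox1. In the authors' deposited table it was 0.227 for Sox9, 0.508 for Sox3, 0.579 for Sox21 and 0.627 for Sox8. Over all genes of the authors' deposited table, 1.83% had a p-value under 0.05.

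Of 12 further Sox genes analysed, 10 were tested, 1 rose and 0 fell (3 higher and 0 lower at an unadjusted p under 0.05, limma), with a median log2 fold change of 0.20. Over all tested genes 3.48% were called, 19.5% reached an unadjusted p under 0.05, and the median was 0.00062. The gene that rose was Sox6, a SoxD factor of interneurons and oligodendrocyte precursors, with 24.1 ± 1.28 FPKM in mutants and 11.8 ± 1.94 FPKM in wild types (SD, n = 2 each, log2 fold change 1.01, limma adjusted p = 0.0344). Of the analysed Sox genes, Sox4 and Sox11, SoxC genes of newborn neurons, had the highest levels in both genotypes. Sox4 was 498 ± 35.8 FPKM in mutants and 417 ± 0.841 FPKM in wild types (limma adjusted p = 0.134). Sox11 was 271 ± 19.2 FPKM in mutants and 287 ± 5.14 FPKM in wild types (limma adjusted p = 0.552). Sox10, the SoxE gene of committed oligodendrocyte cells, was 0.731 and 0.436 FPKM in the mutants and 0.849 and 0.536 FPKM in the wild types, near the filter in every library. Sox4, Sox11 and Sox10 were chosen for naming after their values were seen.

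**Figure D4:**
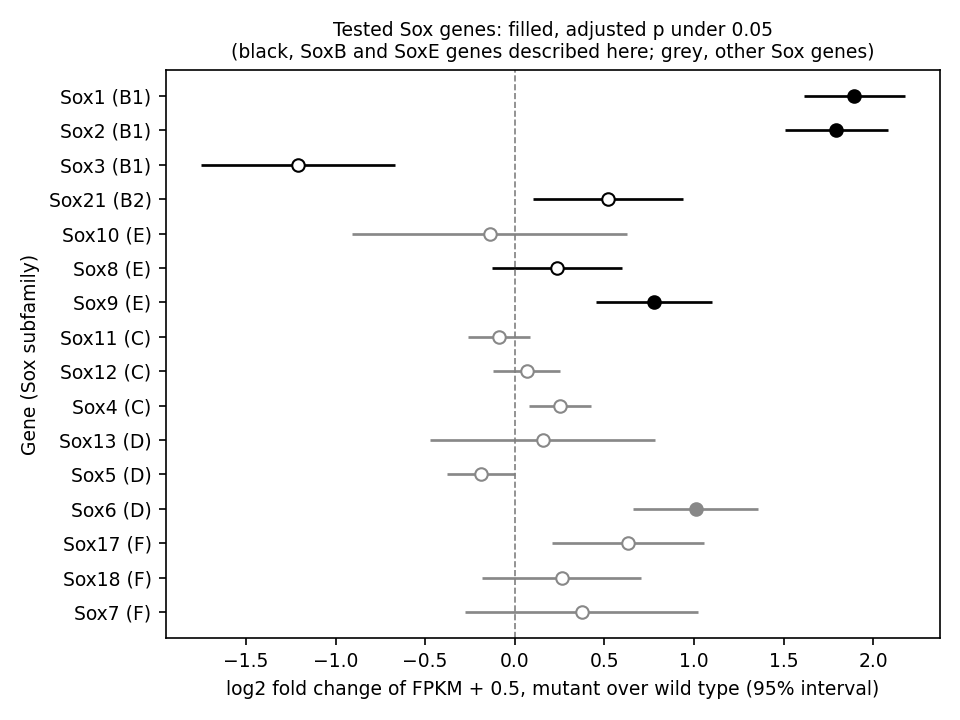
Difference in log2(FPKM + 0.5) between mutants and wild types (mutant minus wild type), with 95% limma intervals for the 16 tested Sox genes, filled where the adjusted p is under 0.05, black for the SoxB and SoxE genes described here and grey for the others. Sox1 and Sox2 lie at 1.89 and 1.79, and Sox3 at -1.21.

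SoxB1 proteins bind DNA beside POU proteins, and of 5 POU genes 1 rose, 2 fell and 2 were not called. Together with the chromatin remodeller gene Chd7, whose protein binds Sox2, 2 of 6 rose and 2 fell. At an unadjusted p under 0.05 (limma) 2 of the 6 were higher and 3 lower, and their median log2 fold change was -0.15. The shares over all tested genes were 3.48% called and 19.5% at an unadjusted p under 0.05. Pou3f4 had 23.8 and 28.5 FPKM in the mutants, against 5.98 and 4.85 FPKM in the wild types (log2 fold change 2.17, limma adjusted p = 0.00923). Chd7 had 18.7 and 18.7 FPKM in the mutants, against 5.64 and 4.38 FPKM in the wild types (log2 fold change 1.81, limma adjusted p = 0.0134). Pou3f2 and Pou3f3, factors of upper-layer cortical neurons, fell: Pou3f2 had 52.9 and 57.98 FPKM in the mutants, against 92.7 and 101 FPKM in the wild types (log2 fold change -0.80, limma adjusted p = 0.0197). Pou3f3 had 83.7 and 82.2 FPKM in the mutants, against 116 and 125 FPKM in the wild types (log2 fold change -0.53, limma adjusted p = 0.0280).

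Genes reported to act downstream of Sox2 or Sox9 mostly stayed without a call, which was also true of most tested genes. Of all tested genes 3.48% were called and 19.5% reached an unadjusted p under 0.05 (limma). Of 8 tested genes of the Sox2 list 1 rose and 0 fell (2 higher and 0 lower at an unadjusted p under 0.05, limma), with a median of 0.12. The gene that rose was Notch1, the receptor that holds radial glia undifferentiated, with 21.6 and 17.4 FPKM in the mutants, against 9.53 and 10.5 FPKM in the wild types (log2 fold change 0.92, limma adjusted p = 0.0400). Of 7 genes of the Sox9 list 0 rose and 0 fell (0 higher and 2 lower at an unadjusted p under 0.05, limma), with a median of -0.13. Its highest members were Nfia, a gliogenic factor, at 26.8 ± 0.630 FPKM in mutants and 29.5 ± 4.74 FPKM in wild types, and the glutamate transporter gene Slc1a3 at 21.6 ± 3.06 FPKM in mutants and 32.9 ± 2.26 FPKM in wild types (SD, n = 2 each, limma adjusted p = 0.641 and 0.0786).

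Sox1, Sox2 and Sox9 are known from dividing radial glia, and markers of radial glia and of proliferation were counted beside them. For scale, 3.48% of all tested genes were called and 19.5% reached an unadjusted p under 0.05 (limma). Of 14 radial glial genes 0 rose and 0 fell, near the share called (3 higher and 2 lower at an unadjusted p under 0.05, limma). Their median was 0.03, and their summed level was 1016 to 1039 FPKM in mutants and 1074 to 1240 FPKM in wild types. The highest of them, the fatty acid binding protein gene Fabp7, was 526 and 525 FPKM in the mutants and 719 and 540 FPKM in the wild types, and Vim, which codes for vimentin, was 122 and 124 FPKM in the mutants and 107 and 131 FPKM in the wild types. Of 10 proliferation genes 9 rose and 0 fell, with a median of 0.95 and a summed level of 491 to 552 FPKM in mutants and 272 to 299.8 FPKM in wild types. Cdk1, the mitotic kinase gene, had 68.8 and 66.2 FPKM in the mutants and 40.7 and 41.4 FPKM in the wild types (log2 fold change 0.71, limma adjusted p = 0.0154), Ccnb1 rose by 0.93 and Mcm5 by 0.97.

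Markers of ventral progenitors and of interneurons, cells that in the mouse also express Sox1 or Sox2, were higher in the same libraries. Of 6 tested ventral regulators 4 rose and 0 fell, with a median of 2.92, and the 8 listed genes summed to 561 to 631 FPKM in mutants and 78.0 to 110 FPKM in wild types. Dlx1, Dlx2 and Sp8 rose by 2.78, 3.07 and 3.29 on the log2 scale. Of 7 interneuron genes 7 rose, among them Gad1 by 2.18, Gad2 by 1.76 and Dlx5 by 3.30, and their summed level was 284 to 305.5 FPKM in mutants and 86.2 to 87.1 FPKM in wild types. The part of these cells in the Sox values was not tested.

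Markers of glial cells, in whose lineages Sox8 and Sox9 act, were counted too. Among all tested genes 3.48% were called and 19.5% reached an unadjusted p under 0.05 (limma). Of 6 tested oligodendrocyte precursor genes 0 rose and 0 fell (0 higher and 1 lower at an unadjusted p under 0.05, limma), and the 7 listed genes summed to 23.1 to 30.6 FPKM in mutants and 16.3 to 32.7 FPKM in wild types. Their highest members were Olig1, at 12.3 and 9.19 FPKM in the mutants and 15.2 and 6.35 FPKM in the wild types, and Olig2, at 11.3 and 9.63 FPKM in the mutants and 8.48 and 4.37 FPKM in the wild types. Of 5 tested astrocyte genes 0 rose and 1 fell (2 higher and 1 lower at an unadjusted p under 0.05, limma), with a median of 0.20. The 7 listed astrocyte genes summed to 31.4 to 36.4 FPKM in mutants and 55.7 to 59.8 FPKM in wild types. The gene that fell was Aldoc, the aldolase gene of radial glia and astrocytes, with 12.0 and 13.01 FPKM in the mutants, against 40.6 and 40.9 FPKM in the wild types (log2 fold change -1.67, limma adjusted p = 0.00466). Gja1, a gap junction gene, had 9.75 and 5.87 FPKM in the mutants, against 3.52 and 2.92 FPKM in the wild types (log2 fold change 1.12, limma adjusted p = 0.108). Slc1a2, a glutamate transporter gene, had 4.75 and 4.61 FPKM in the mutants, against 3.63 and 2.77 FPKM in the wild types (log2 fold change 0.50, limma adjusted p = 0.236). Gja1 and Slc1a2 were chosen for naming after their values were seen.

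**Figure D5:**
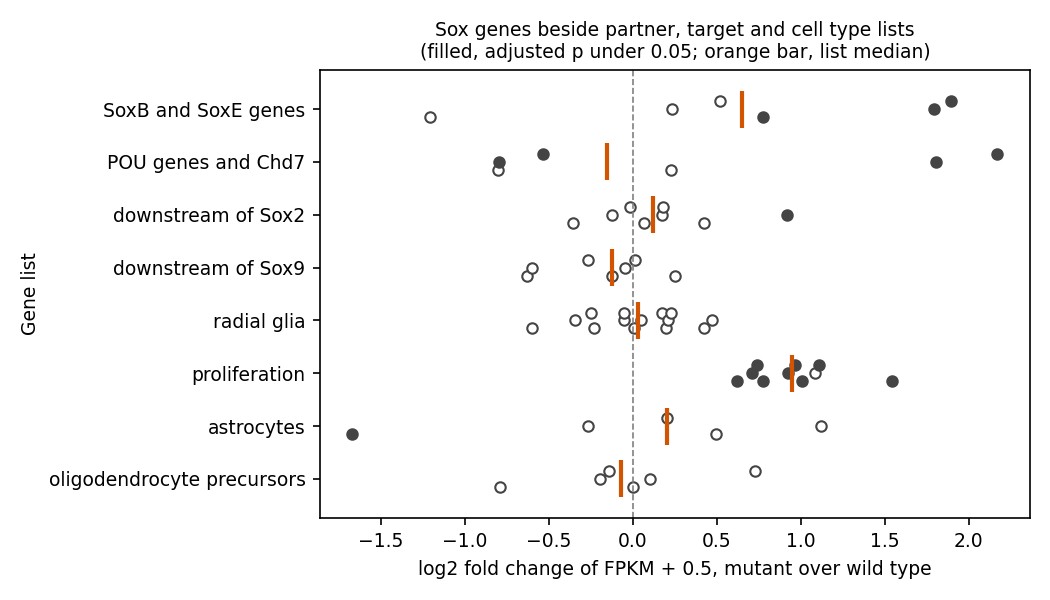
Difference in log2(FPKM + 0.5) between mutants and wild types (mutant minus wild type) of the SoxB and SoxE genes and of the tested members of 7 lists, filled where the adjusted p is under 0.05, with an orange bar at each list's median. Proliferation genes have a median of 0.95, radial glial genes 0.03 and the SoxB and SoxE genes 0.65.

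Markers of other cell types gave the following values, where 3.48% of all tested genes were called and 19.5% reached an unadjusted p under 0.05 (limma). Of 5 endothelial genes 0 were called (2 higher at an unadjusted p under 0.05, limma), and they summed to 45.1 to 56.1 FPKM in mutants and 38.04 to 38.5 FPKM in wild types. Of 4 tested meningeal fibroblast genes 0 were called (3 higher at an unadjusted p under 0.05, limma), and the 5 listed genes summed to 5.83 to 26.5 FPKM in mutants and 2.40 to 3.59 FPKM in wild types. Each of these 5 genes was highest in mutant library 1. Of 4 microglial genes 0 were called (1 lower at an unadjusted p under 0.05, limma), with sums of 10.6 to 13.1 FPKM in mutants and 11.6 to 14.2 FPKM in wild types. The 4 genes of the midbrain and diencephalic GABAergic lineage, where Sox14 acts, summed to 1.33 FPKM in both mutants and to 0.712 to 0.839 FPKM in wild types. Only Tal1 among them passed the filter, and it was not called.

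The genes whose pattern over the 4 libraries lay closest to each Sox gene were found by Euclidean distance on centred log2 values among 9596 protein-coding genes of at least 5 FPKM. For Sox1 they included Chd7 (distance 0.13) and the vesicular GABA transporter gene Slc32a1 (0.13). For Sox2 they were Smoc1, which codes for a secreted calcium-binding protein (distance 0.10, 18.7 and 20.4 FPKM in the mutants and 5.92 and 5.09 FPKM in the wild types), Akna (0.13) and Tmem47 (0.15). For Sox3 they were Ppp1r1b, which codes for DARPP-32 (distance 0.10, 8.80 and 10.9 FPKM in the mutants and 21.6 and 28.3 FPKM in the wild types), Osbpl6 (0.21) and Lhfp (0.22). For Sox9 they were the kinase gene Pim1 (distance 0.018), Tmtc2 (0.044) and 2810459M11Rik (0.064). Sox21 lay closest to Mtcl1 (0.053), Rnaseh2b (0.059) and Fmnl3 (0.062), and Sox8 to Immp1l (0.011), Unc119b (0.026) and Grip1 (0.032). These distances describe likeness over 4 libraries only.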

How the data were processed

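The authors deposited 1 table with an FPKM value per gene and library, per the file headers, made with TopHat2 2.0.9, Cufflinks 2.2.1 and edgeR on GRCm38.p4 or mm10, per the submitters' processing notes, which give no role to each. Strand use, RNA selection and further scaling: not given in the sources used here. Deposited values also include the authors' ratio (mutant over wild-type group FPKM) and p-value, per the file headers. Genes with at least 0.5 FPKM in 2 libraries (15399) were tested on log2(FPKM + 0.5) with limma 3.58.1 in R 4.3.3 (eBayes with a mean-variance trend), Benjamini-Hochberg adjusted over all tested genes, threshold 0.05. Fold changes on this scale understate low genes. The script was tested on simulated data. Fragment numbers come from the most frequent low value of FPKM times kilobases and entered no test; intervals cover the spread between libraries only. Gene models are GENCODE M21 on GRCm38, counted from 1.

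The genes and lists were chosen with earlier results of these data known. Named genes were all members, called members of the Sox, POU and target lists, up to 3 called or 2 highest members of other lists, overlapping and neighbouring genes, and the 3 nearest patterns; a neighbouring gene and a nearest pattern under this rule are not reported here. Pairing of replicate numbers was checked by the correlation of deviations across genes, 0.049, and no label ties a number to a litter. Alternatives covered pseudocount, filter, trend, scaling, replicate block and each library left out.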

Additional observations from a re-analysis of the deposited data

How the results depend on the processing

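The direction of all 6 genes and of the 4 ratios was kept under every alternative run. For the 6 genes this could hardly come out otherwise and is no separate support. Their mutants and wild types did not overlap, and filter, trend and replicate block leave the log2 fold change as it is. The count of 536 called genes (311 higher, 225 lower) was 61 with no filter (40 and 21), 54 without the mean-variance trend (34 and 20), and 7 to 59 with a library left out (6 to 31 higher, 1 to 28 lower), where the lone library left is assumed to vary like the other group. The 3 called Sox genes were 1 without the trend and 0 to 1 with a library left out. Sox2 missed the threshold without the trend (log2 fold change 1.79, adjusted p = 0.0552). Sox9 (0.78) missed it with no filter (adjusted p = 0.104), without the trend (0.0995) and with the replicate block (0.0734). With a library left out the log2 fold change was 1.77 to 2.01 for Sox1, 1.67 to 1.92 for Sox2, 0.66 to 0.90 for Sox9, 0.12 to 0.35 for Sox8, 0.37 to 0.67 for Sox21 and -1.37 to -1.05 for Sox3. The cause of these changes was not tested. The replicate block gave 374 called genes, 2 of them Sox genes of groups B and E, and changed no other call among the 6. Sox3 was not called under any alternative run, with adjusted p of 0.0527 to 0.285. With 2 libraries a group, a gene without a call may still differ.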
